A study of Mus musculus with 2 samples.

Results

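The 7 nonmuscle and smooth muscle myosin genes Myl12a, Myl12b, Myl6, Myl9, Myh9, Myh10 and Myh11 were described among 14883 annotated genes with reads in mouse gastrocnemius, a calf muscle. All rows that the annotation assigns to these gene names were used, in every read class. The genes were chosen by family membership and on earlier values of the same reads, in which the 2 libraries differed in the transcript shares of Myl12a and in the level of Myh11. The ratios between libraries and the Myl12a shares are therefore given as descriptions, with no test. The genes held 593 of 1173233 reads (505 CPM, that is reads per 1000000 reads of the library) in replicate 2 and 457 of 1509380 reads (303 CPM) in replicate 1, in 70 and 57 transcript models.

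The samples were long-read cDNA libraries of whole gastrocnemius from male B6CASTF1/J mice, F1 hybrids between the C57BL/6J strain and the wild-derived CAST/EiJ strain, at 18 to 20 months of age. There was 1 group of 2 libraries, labelled biological replicates 2 and 1, with no treatment and no second condition, and each was made from 2 µg of total RNA with spike-ins. The labels give the libraries separate biosamples but the same donor entry, and do not say whether a library stands for 1 mouse or for pooled tissue. All differences below are differences between these libraries, and their spread may be technical.

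Myosin II molecules pair heavy chains, which carry the motor head and the coiled-coil tail, with essential and regulatory light chains. In nonmuscle and smooth muscle myosin, phosphorylation of the regulatory light chain switches the motor on, whereas sarcomeric myosin in muscle fibres is controlled mainly through the thin filament. In a limb muscle the nonmuscle and smooth muscle forms are known from vessel walls, endothelium, connective tissue and other cells between the fibres, and nonmuscle forms are also present in the fibres.

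The regulatory light chains Myl12a, Myl12b and Myl9 share the site at which they are phosphorylated. The first 75 coding bases of the most read transcript of each gene are shown 5′ to 3′ from the GENCODE M21 transcripts, with the adjoining threonine and serine codons, codons 19 and 20 counted from the initiator methionine, in capitals. These are the residues that myosin light chain kinase modifies.
Myl12a-206: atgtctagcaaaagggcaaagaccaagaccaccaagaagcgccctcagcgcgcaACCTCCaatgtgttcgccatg
Myl12b-201: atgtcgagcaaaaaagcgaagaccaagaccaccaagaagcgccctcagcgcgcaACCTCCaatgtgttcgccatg
Myl9-201: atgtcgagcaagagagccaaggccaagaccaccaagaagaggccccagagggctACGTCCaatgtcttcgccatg
Over the 519 coding bases with the stop codon, Myl12a and Myl12b were 96.5% identical, and Myl12a and Myl9 85.5%. Within the bases shown, Myl12a differed from Myl12b at 4 positions and from Myl9 at 13. Reads of Myl12a and Myl12b could thus be exchanged where they cover little beyond the coding exons, and the split between both genes is uncertain to that extent.

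In long-read data each read stands for 1 cDNA molecule, so CPM was not divided by length. Levels were compared within the light chains and within the heavy chains. Genes of different length differed in their ratio between the libraries, as given below, and levels were not corrected for this. Myl12a, a nonmuscle regulatory light chain, had the highest level of the 4 light chain genes. It had 399 reads (340 CPM) in replicate 2 and 252 reads (167 CPM) in replicate 1. Myl6, the essential light chain shared by nonmuscle and smooth muscle myosin, followed with 49 reads (41.8 CPM) in replicate 2 and 105 reads (69.6 CPM) in replicate 1. Myl9, the regulatory light chain typical of smooth muscle, had 19 reads (16.2 CPM) in replicate 2 and 50 reads (33.1 CPM) in replicate 1. Myl12b, the close copy of Myl12a, had 18 reads (15.3 CPM) in replicate 2 and 11 reads (7.29 CPM) in replicate 1. The means were 254 ± 122 CPM for Myl12a, 55.7 ± 19.7 CPM for Myl6, 24.7 ± 11.97 CPM for Myl9 and 11.3 ± 5.70 CPM for Myl12b (SD, n = 2 each). At each step of this order the lower library of the higher gene stood above the higher library of the next gene. Ranges of 2 libraries do not by themselves settle the order. The step from Myl9 to Myl12b was not resolved in replicate 2, where it rested on 19 against 18 reads. Exact intervals for counting error there were 9.75 to 25.3 CPM for Myl9 and 9.09 to 24.2 CPM for Myl12b. In replicate 1 these intervals were apart, at 24.6 to 43.7 CPM for Myl9 and 3.64 to 13.0 CPM for Myl12b.

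The heavy chain genes lay close together in replicate 2 and apart in replicate 1. Myh9, which encodes nonmuscle heavy chain IIA, had 36 reads (30.7 CPM) in replicate 2 and 22 reads (14.6 CPM) in replicate 1. Myh10, which encodes nonmuscle heavy chain IIB, had 37 reads (31.5 CPM) in replicate 2 and 5 reads (3.31 CPM) in replicate 1. Myh11, the smooth muscle heavy chain, had 35 reads (29.8 CPM) in replicate 2 and 12 reads (7.95 CPM) in replicate 1. The means were 22.6 ± 11.4 CPM for Myh9, 18.9 ± 15.5 CPM for Myh11 and 17.4 ± 20.0 CPM for Myh10 (SD, n = 2 each), and the order of the 3 was not resolved, because their ranges overlapped. All 7 genes were above the 3 reads that a count of 0 allows, which equal 2.56 CPM in replicate 2 and 1.99 CPM in replicate 1.

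**Figure D1:**
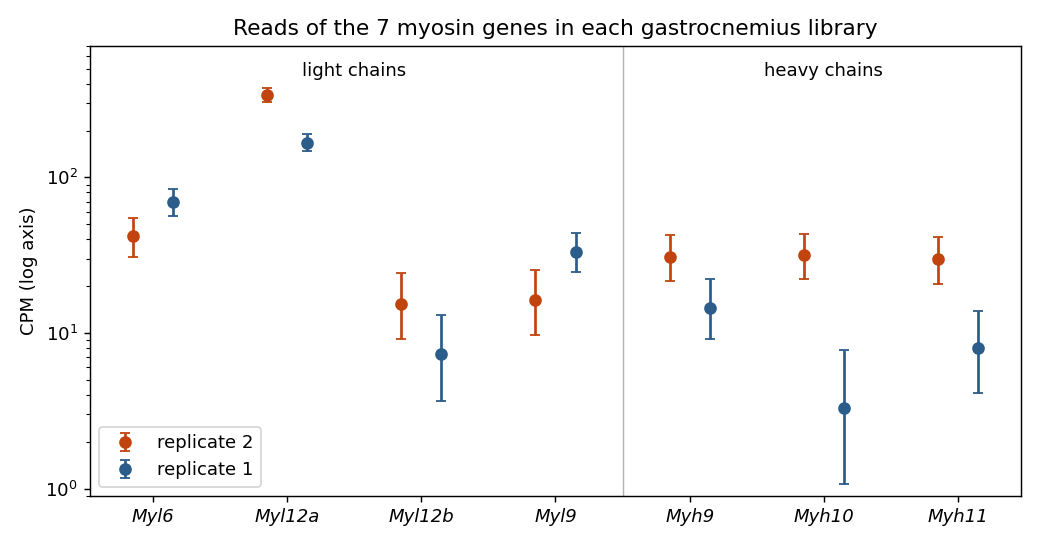
CPM of each gene on a log axis in replicate 2 (left of each pair) and replicate 1; points are single libraries and bars are exact 95% Clopper-Pearson intervals, which cover counting error only. The points of Myl12a, Myl12b and the 3 heavy chain genes are higher in replicate 2, and those of Myl6 and Myl9 are lower.

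With 1 library each, the ratios have no replicate check, and they were read against all 9029 genes that reached 10 reads in the libraries together. Ratios were taken as log2(CPM + 1), where low genes appear less different than they are. The log2 ratio of replicate 2 to replicate 1 was 2.92 for Myh10, 1.78 for Myh11, 1.02 for Myh9, 1.02 for Myl12a and 0.98 for Myl12b. It was −0.72 for Myl6 and −0.99 for Myl9. The median over all genes was 0.19. Thus 4 of the 7 genes (Myl12a, Myh9, Myh10 and Myh11) reached a 2-fold higher level in replicate 2, and 0 reached a 2-fold lower one. Over all genes tested, 13.5% were at least 2-fold higher and 4.33% at least 2-fold lower. Myl12b and Myl9 lay just short of the limit on either side. For Myl12b this included reads on exons at the Myl12a locus, described below. With only the reads on Myl12b exons, an alternative chosen after seeing the data, its log2 ratio was 0.44. With annotated transcripts only it was also 0.44.

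These counts depended on the scaling. With TMM scaling in edgeR, under which the median of all genes came to 0.00, 2 members (Myh10 and Myh11) were at least 2-fold higher and 1 (Myl9) at least 2-fold lower, beside 9.38% and 7.06% of all genes. The sign of each ratio was the same under the 5 alternatives that recompute it, namely TMM, DESeq2 size factors, centring on length, a pseudocount of 5 CPM and annotated transcripts only. Exact 95% intervals describe the precision of each library, and for Myl12a and Myh11 they bear on values that chose the genes. For Myh10 they ran from 22.2 to 43.5 CPM in replicate 2 and from 1.08 to 7.73 CPM in replicate 1, and for Myh11 from 20.8 to 41.5 CPM in replicate 2 and from 4.11 to 13.9 CPM in replicate 1. For Myl12a they ran from 308 to 375 CPM in replicate 2 and from 147 to 189 CPM in replicate 1. These 3 pairs did not overlap, with replicate 2 higher. The Myl6 intervals of 30.9 to 55.2 CPM in replicate 2 and 56.9 to 84.2 CPM in replicate 1 did not overlap either, with replicate 2 lower. That holds for all Myl6 reads. With annotated transcripts only, on 37 reads in replicate 2 and 54 in replicate 1, the log2 ratio of Myl6 was −0.18. For Myh9, Myl9 and Myl12b the intervals of the libraries overlapped. These intervals cover counting error only, because copies of a molecule could not be told from separate molecules. The share of all genes with intervals apart in this way was not counted, so these separations have no background beside them.

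Genes with longer transcripts had higher ratios throughout the data, and the heavy chain genes are long. The median log2 ratio of the genes nearest in length was 0.74 for Myh9, whose most read annotated transcript spans 7433 nt. It was −0.52 for Myl6, whose transcript spans 691 nt. Relative to these genes of like length, the log2 ratio was 2.19 for Myh10, 1.09 for Myh11, 1.07 for Myl12a, 0.92 for Myl12b and 0.28 for Myh9. It was −0.20 for Myl6 and −0.66 for Myl9. After this centring 3 members (Myl12a, Myh10 and Myh11) were at least 2-fold higher and 0 at least 2-fold lower, beside 6.17% and 4.77% of 8624 genes. Myh9 and Myl6 thus lay close to genes of their own length. Myl12a had nearly the same value with and without centring when set at 1937 nt, the length of Myl12a-206. Its other main transcript, Myl12a-201, has 980 nt and held most Myl12a reads of replicate 2. Myl12a was not centred at that length.

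**Figure D2:**
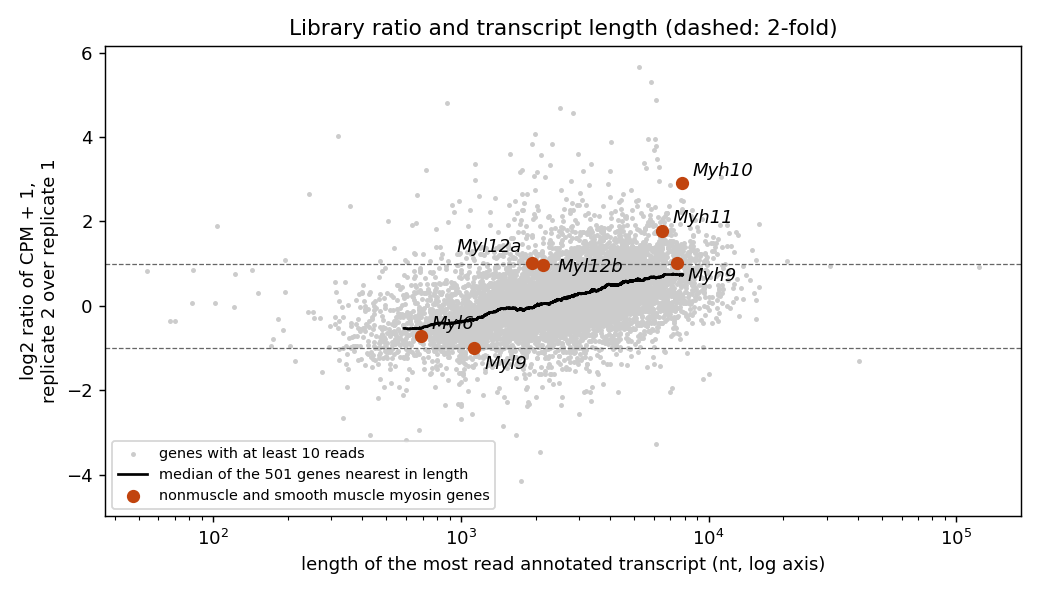
Log2 ratio of CPM + 1, replicate 2 over replicate 1, against transcript length, taken from the annotated transcript with most reads (log axis); grey points are single genes and the black line is the median of the genes nearest in length. Myh10, Myh11 and Myl12a stand more than 1 above the line, Myh9 lies 0.28 above it and Myl6 0.20 below it.

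Most Myl12a reads came from 2 transcripts that start at different first exons and hold the same coding exons. The gene lies on chromosome 17 (mm10, minus strand, 70993656 to 71002878). Myl12a-206 begins at a first exon of 447 nt (71002108 to 71002554), and Myl12a-201 at one of 128 nt (70997885 to 70998012), with annotated starts 4542 nt apart. Both first exons are noncoding and lie in the 5′ UTR, and both transcripts then join the same 516 coding bases, stop codon aside. The annotated last exons differ as well, at 1129 nt in Myl12a-206 and 491 nt in Myl12a-201. The reads are matched to annotated transcripts by their splice junctions, so the starts and the last exon lengths are those of the annotation and not measured ends.

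Myl12a-201, from the downstream start, held 252 of 399 reads (63.2%) in replicate 2 and 32 of 252 reads (12.7%) in replicate 1. Myl12a-206, from the upstream start, held 127 reads (31.8%) in replicate 2 and 198 reads (78.6%) in replicate 1. The more read start was therefore the downstream one in replicate 2 and the upstream one in replicate 1. By level, the downstream transcript stood at 215 CPM in replicate 2 and 21.2 CPM in replicate 1, a ratio of 10.1. The upstream transcript stood at 108 CPM in replicate 2 and 131 CPM in replicate 1, a ratio of 0.825. The higher gene total of Myl12a in replicate 2 thus lay in reads of the downstream first exon.

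Grouped by first splice donor, spliced reads from the downstream exon made up 65.6% (exact 95% Clopper-Pearson interval 60.6 to 70.4) of 384 in replicate 2 and 13.4% (9.38 to 18.4) of 238 in replicate 1. Those from the upstream exon made up 33.1% (28.4 to 38.0) in replicate 2 and 83.2% (77.8 to 87.7) in replicate 1. Among the 4575 genes that had 20 reads or more in both libraries, 4.35% differed by at least 20 percentage points in the share of their most read annotated transcript. Myl12a-206 differed by −46.7 points, a value that the choice of this gene rests on. The remaining Myl12a reads were few, with 15 single-exon reads among the incomplete matches of replicate 2 and 14 single-exon genomic reads in replicate 1.

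**Figure D3:**
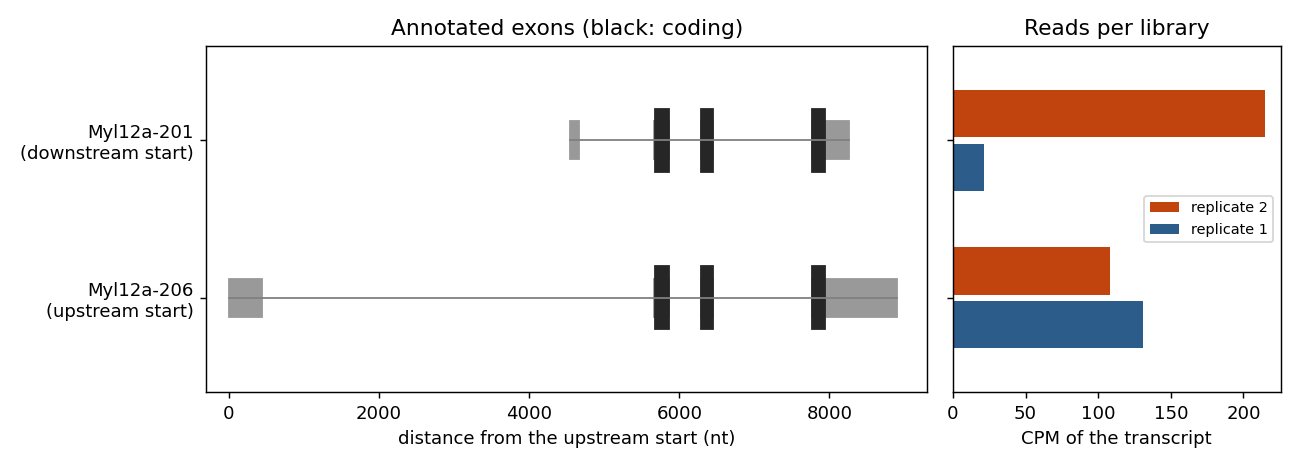
Left, annotated exons of both Myl12a transcripts by distance from the upstream start in nt, with coding parts in black; right, CPM of each transcript in replicate 2 (upper bar) and replicate 1. The downstream-start transcript reaches 215 CPM in replicate 2 and 21.2 CPM in replicate 1, while the upstream-start transcript reaches 108 and 131 CPM.

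The RefSeq promoter table (GRCm38.p6) holds the upstream start of Myl12a and no window at the downstream start. The window runs from 250 bases before to 50 after the RefSeq start, chr17:71002484-71002783 on the minus strand, and is shown because reads from this start differed least between the libraries.
Myl12a upstream promoter: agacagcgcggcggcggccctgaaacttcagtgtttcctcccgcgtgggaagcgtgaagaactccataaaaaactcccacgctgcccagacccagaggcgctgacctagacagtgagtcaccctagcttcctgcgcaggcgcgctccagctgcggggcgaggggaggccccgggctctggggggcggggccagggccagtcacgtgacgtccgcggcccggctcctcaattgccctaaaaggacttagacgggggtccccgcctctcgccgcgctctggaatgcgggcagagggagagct
Of the 7 genes, 6 matched the table, with 7 windows between them, and Myh11 had none. The CArG box, the binding site of serum response factor, which drives smooth muscle genes, was searched in these windows. The pattern reads the same on both strands. It was present in 2 of the 7 windows and in 1.63% of all 32851 promoter windows of this length. One was that of Myl9, chr2:156775214-156775513 on the plus strand, where it began 161 bases before the start and is given in capitals.
Myl9 promoter: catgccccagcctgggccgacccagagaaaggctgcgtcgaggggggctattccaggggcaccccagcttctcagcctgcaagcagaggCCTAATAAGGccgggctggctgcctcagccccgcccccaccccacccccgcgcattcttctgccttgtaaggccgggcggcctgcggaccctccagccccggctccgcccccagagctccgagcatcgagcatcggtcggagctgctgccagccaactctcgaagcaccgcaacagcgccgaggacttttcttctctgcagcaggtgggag
The other was the second Myl6 window, with the box 50 bases before the start. The first exon annotated near that start, of Myl6-213, had 0 reads in replicate 2 and 4 in replicate 1, while the first exon of the main Myl6 transcripts had 41 in replicate 2 and 72 in replicate 1, and the window at their start held no CArG box. No CArG box was found in the Myl12a window above. These are matches of letters in a window and do not show binding.

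The name Myl12b covers a pair of annotated gene entries, and its reads did not all come from 1 locus. Myl12b proper spans 70973133 to 70990890 on the minus strand of chromosome 17, next to Myl12a, and an overlapping entry of the same name spans 70974119 to 71002208 and reaches the upstream Myl12a exon. Of the 18 reads in replicate 2, 12 lay on Myl12b exons alone, 4 on exons at the Myl12a locus alone, and 2 joined exons of both loci in 1 read-through model. All 11 reads of replicate 1 lay on Myl12b exons. On these exons alone, Myl12b stood at 10.2 CPM in replicate 2 and 7.29 CPM in replicate 1. Myl12b-201 was its sole annotated transcript with reads, with 11 reads in replicate 2 and 10 in replicate 1.

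Myl9 was read almost wholly as Myl9-201, with 17 of 19 reads (89.5%) in replicate 2 and 41 of 50 reads (82.0%) in replicate 1. In replicate 1, 6 further reads left the first exon at another annotated donor, chr2:156775538, and replicate 2 had 0 such reads of 18 spliced ones, which allows a share of up to 18.5%. Among the regulatory light chain reads, Myl12a made up 91.5% in replicate 2 and 80.5% in replicate 1. Myl9 made up 4.36% (2.64 to 6.72) in replicate 2 and 16.0% (12.1 to 20.5) in replicate 1. Myl12b made up 4.13% in replicate 2 and 3.51% in replicate 1. The share of Myl12b differed little, while that of Myl9 lay in separate intervals. Both shares are taken over totals that are mostly Myl12a reads, a gene with differences known when the members were chosen. By level, the Myl9 intervals overlapped, at 9.75 to 25.3 CPM in replicate 2 and 24.6 to 43.7 CPM in replicate 1.

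Myl6 carries alternative exons that change its coding end. A 45-nt exon, chr10:128491720-128491764 on the minus strand, is included in Myl6-206 and skipped in Myl6-201, and is known to distinguish light chain forms of smooth muscle and nonmuscle cells by their last residues. It holds 26 coding bases and the stop codon, given here in capitals.
Myl6 45-nt exon to its stop codon: catttgtgaggcatatcctgtcggggTGA
It was included in 26 of 44 informative reads (59.1%, exact interval 43.2 to 73.7) in replicate 2 and in 53 of 96 reads (55.2%, 44.7 to 65.4) in replicate 1. The forms with and without the exon were thus read in like shares in both libraries, 57.1% ± 2.75 (SD, n = 2) with it. By annotated name, Myl6-206 held 34.7% of Myl6 reads in replicate 2 and 23.8% in replicate 1, and Myl6-201 held 32.7% and 20.0%. The unspliced Myl6-209 held 2 reads in replicate 2 and 7 in replicate 1.

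A 20-nt Myl6 exon, chr10:128493334-128493353, was read in different shares. The annotation has it in Myl6-210, a transcript with no coding region, but 5 of the 9 reads with it in replicate 2 and 25 of the 38 in replicate 1 began at the first exon that carries the annotated start codon of Myl6. Its length leaves a remainder of 2 when divided by 3, so its inclusion shifts the reading frame there.
Myl6 20-nt exon: ATCTGAGCCCCAAGCGCTGG
It was included in 9 of 46 reads (19.6%, 9.36 to 33.9) in replicate 2 and in 38 of 85 reads (44.7%, 33.9 to 55.9) in replicate 1. The share was lower in replicate 2, but the intervals touched, with an upper bound in replicate 2 and a lower bound in replicate 1 of 33.9% each. Of the reads with this exon, 6 in replicate 2 and 33 in replicate 1 were unannotated combinations of known splice sites, and the other 3 and 5 were incomplete matches. The other alternative exon, of 58 nt and annotated in Myl6-211, was included in 1 of 19 reads in replicate 2 and 2 of 45 in replicate 1.

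Myh11 has alternative exons that define its known isoforms in smooth muscle. A 21-nt exon, chr16:14248580-14248600 on the minus strand, encodes the insert near the ATP-binding site of the SM-B forms, which are the faster ones. A 39-nt exon near the 3′ end, chr16:14198050-14198088, carries an earlier stop codon, in capitals below, and gives the shorter tail of SM2.
Myh11 21-nt exon: CAAGGTCCATCTTTTGCCTAC
Myh11 39-nt exon to its stop codon: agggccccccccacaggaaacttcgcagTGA
The 21-nt exon was included in 13 of 24 reads (54.2%, 32.8 to 74.4) in replicate 2 and in 5 of 7 reads (71.4%, 29.0 to 96.3) in replicate 1. The 39-nt exon was included in 2 of 34 reads (5.88%, 0.720 to 19.7) in replicate 2 and in 3 of 12 reads (25%, 5.49 to 57.2) in replicate 1. Both SM-B and SM-A type reads were present, and most reads of both libraries skipped the 39-nt exon. The intervals overlapped for both exons, so no difference between the libraries was detectable at this depth. By annotated name, Myh11-204 held 10 reads in replicate 2 and 2 in replicate 1, and Myh11-201 held 8 reads in replicate 2 and 2 in replicate 1.

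**Figure D4:**
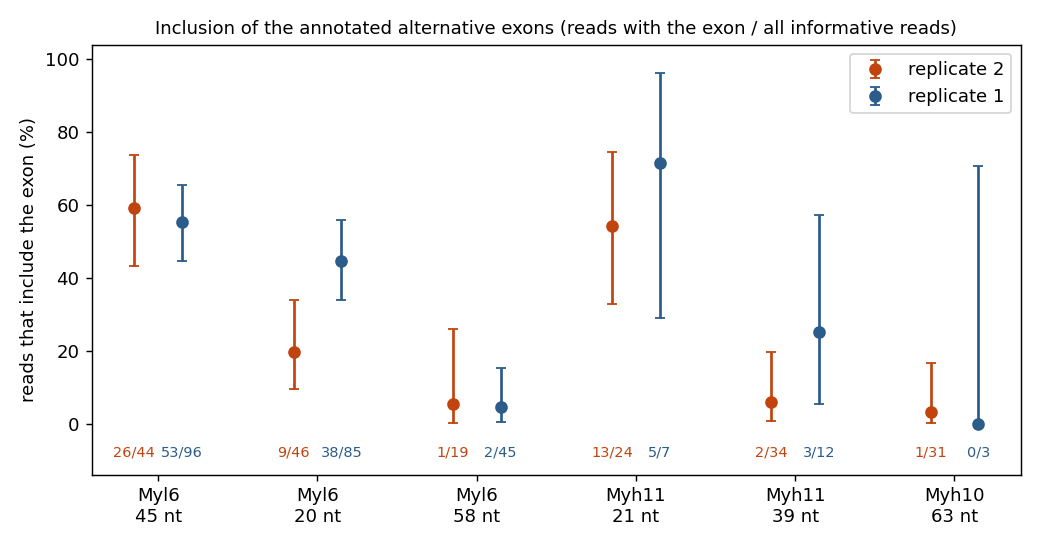
Share of reads that include each annotated alternative exon in replicate 2 (left of each pair) and replicate 1, with exact 95% Clopper-Pearson intervals; the fractions below give reads with the exon over all informative reads. The Myl6 45-nt exon lies at 59.1% in replicate 2 and 55.2% in replicate 1, while the Myl6 20-nt exon lies at 19.6% in replicate 2 and 44.7% in replicate 1.

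The nonmuscle heavy chain genes showed little use of alternative exons. The 63-nt exon of Myh10, annotated in Myh10-201 and known as the neuronal insert at the actin-binding loop, was included in 1 of 31 reads in replicate 2 and 0 of 3 in replicate 1, which allows a share of up to 70.8%. In Myh9, 1 of 29 reads in replicate 2 and 0 of 8 in replicate 1 held an unannotated exon, also of 63 nt. Myh10-203 was the sole annotated Myh10 transcript with reads, with 22 of 37 reads in replicate 2 and 0 of 5 in replicate 1. Myh9-201 held 23 of 36 reads (63.9%) in replicate 2 and 6 of 22 reads (27.3%) in replicate 1.

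Many heavy chain reads spanned nearly the whole transcript. Reads with at least 40 exons made up 28 of 36 for Myh9 (77.8%, 60.8 to 89.9) in replicate 2 and 7 of 22 (31.8%, 13.9 to 54.9) in replicate 1. For Myh10 they made up 27 of 37 (73.0%) in replicate 2 and 2 of 5 (40%) in replicate 1. For Myh11 they made up 24 of 35 (68.6%) in replicate 2 and 9 of 12 (75%) in replicate 1. The intervals of the libraries were apart for Myh9 and overlapped for Myh10 and Myh11. Other long genes were not counted in this way, so a difference of Myh9 cannot be told from one of the whole libraries. The incomplete splice matches of these genes included 9, 11 and 13 reads in replicate 2, and 11, 4 and 3 in replicate 1, that lacked 5′ exons, for Myh9, Myh10 and Myh11 in turn. Reads that lacked only 3′ exons numbered 0 for every member in both libraries.

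**Figure D5:**
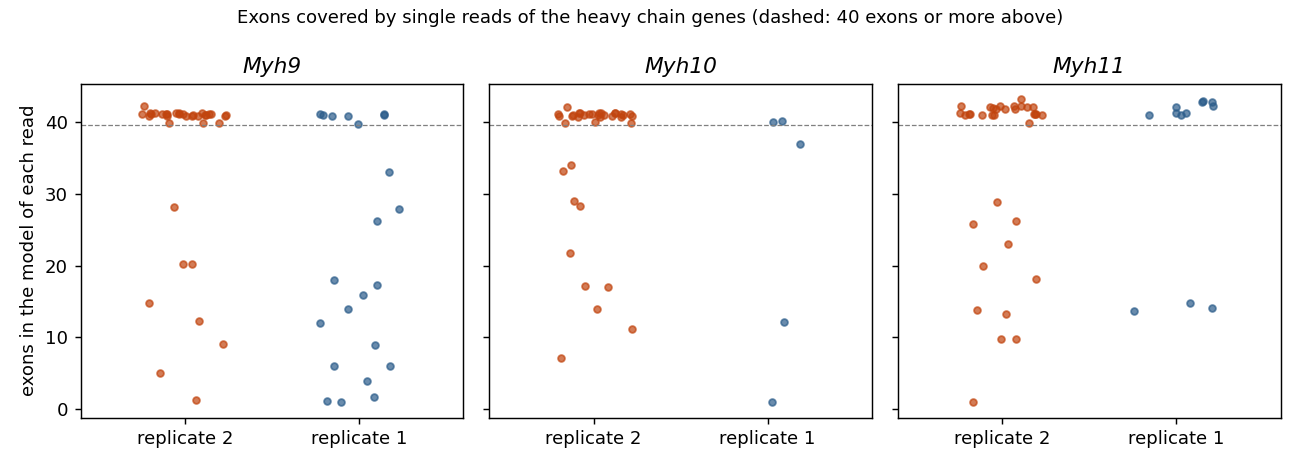
Exons in the transcript model of each heavy chain read, 1 point per read with random sideways and vertical jitter, in replicate 2 (left) and replicate 1. In Myh9, 28 of 36 reads have 40 exons or more, above the dashed line, in replicate 2 and 7 of 22 in replicate 1.

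The heavy chain pool and the light chains did not keep the same proportions. Myh9 made up 33.3% (24.6 to 43.1) of the 108 heavy chain reads in replicate 2 and 56.4% (39.6 to 72.2) of the 39 in replicate 1. Myh10 made up 34.3% (25.4 to 44.0) in replicate 2 and 12.8% (4.30 to 27.4) in replicate 1, and Myh11 made up 32.4% in replicate 2 and 30.8% in replicate 1. These intervals overlapped for every heavy chain gene. There were 0.454 Myl6 reads per heavy chain read in replicate 2 and 2.69 in replicate 1. With the reads of Myh14, a further nonmuscle heavy chain gene outside the 7, added to the heavy chains, these ratios were 0.202 in replicate 2 and 1.00 in replicate 1. There were 8.90 regulatory light chain reads per Myl6 read in replicate 2 and 2.98 in replicate 1. The protein holds essential and regulatory chains in equal number, and neither library had equal read numbers. Genes as long as the heavy chains and genes as short as Myl6 also differed in their ratio between the libraries, as given above.

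Against the sarcomeric chains of the fibres, these genes were minor. They made up 8.42% of all regulatory light chain reads in replicate 2 and 1.85% in replicate 1. They made up 0.761% of essential light chain reads in replicate 2 and 0.602% in replicate 1. Of heavy chain reads they made up 0.231% in replicate 2 and 0.106% in replicate 1. The sarcomeric light chain totals were themselves lower in replicate 2, with 4742 regulatory reads against 16632 in replicate 1.

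Among 21 regulators of the regulatory light chain, 16 had at least 10 reads, of which 3 (Cdc42bpa, Ppp1r12c and Prkg1) were at least 2-fold higher in replicate 2, 0 were lower and 13 lay within 2-fold. All genes had 13.5% higher and 4.33% lower, and 3 of 16 is near that background. The median log2 ratio of the list was 0.11, beside 0.19 over all genes. After centring on length 1 regulator (Cdc42bpa) was higher and 1 (Rhob) lower, beside 6.17% and 4.77% of all genes. Prkg1 had no centred value. The most read was Ppp1cb, the catalytic subunit of myosin phosphatase, with 391 CPM in replicate 2 and 239 CPM in replicate 1. Its targeting subunits Ppp1r12b and Ppp1r12c had 29.0 and 42.6 CPM in replicate 2 and 19.2 and 19.9 CPM in replicate 1. Ppp1r14c, an inhibitor of the phosphatase, had 119 CPM in replicate 2 and 165 CPM in replicate 1. Of the kinases, Mylk2, the skeletal muscle light chain kinase, had 84.4 CPM in replicate 2 and 133 CPM in replicate 1. Mylk4 had 128 CPM in replicate 2 and 97.4 CPM in replicate 1. Mylk, the smooth muscle and nonmuscle kinase, had 6 reads in replicate 2 and 8 in replicate 1, while Mylk3, the cardiac kinase, had 0 in both. Cdc42bpa, a kinase that acts on the phosphatase, had 23.0 CPM in replicate 2 and 4.64 CPM in replicate 1. Dapk3, another light chain kinase, had 42.6 CPM in replicate 2 and 51.0 CPM in replicate 1, while the small GTPase Rhoa had 35.8 CPM in replicate 2 and 34.5 CPM in replicate 1. Prkg1, the cGMP-dependent kinase that relaxes smooth muscle, had 34.1 CPM in replicate 2 and 8.61 CPM in replicate 1.

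Of 6 other nonmuscle myosin chains and partners, 4 were tested, with 1 higher, 0 lower and a median of 0.84, and with 0 higher and 0 lower after centring on length. That 1 was Myh14, the nonmuscle heavy chain IIC, with 134 reads (114 CPM) in replicate 2 and 66 reads (43.7 CPM) in replicate 1. Its reads outnumbered those of Myh9, Myh10 and Myh11 together in both libraries. Myo18a, an unconventional myosin that joins nonmuscle filaments, had 198 CPM in replicate 2 and 113 CPM in replicate 1. Unc45b, the muscle myosin chaperone, had 427 CPM in replicate 2 and 342 CPM in replicate 1. Of 16 nonmuscle and smooth muscle actin and thin filament genes, 14 were tested, with 3 higher (Tagln, Lmod1 and Flna), 1 lower (Actn1), 10 within 2-fold and a median of 0.40. This too is near the 13.5% and 4.33% of all genes. After centring on length 1 gene (Tagln) was higher and 1 (Actn1) lower, beside 6.17% and 4.77% of all genes. Tagln, a smooth muscle actin-binding protein, had 22.2 CPM in replicate 2 and 6.63 CPM in replicate 1. Cytoplasmic actins had 79.3 CPM (Actb) and 114 CPM (Actg1) in replicate 2, and 125 CPM and 103 CPM in replicate 1. Smooth muscle genes of this list differed among themselves in their ratios. Smooth muscle actin Acta2 had 36.7 CPM in replicate 2 and 34.5 CPM in replicate 1. Smtn, an actin-binding protein of smooth muscle, had 91.2 CPM in replicate 2 and 121 CPM in replicate 1. Flna, an actin crosslinker, had 40.1 CPM in replicate 2 and 17.2 CPM in replicate 1. Actn4 had 63.1 CPM in replicate 2 and 37.1 CPM in replicate 1, while Tpm4 had 61.4 CPM in replicate 2 and 48.4 CPM in replicate 1. Of 4 transcriptional regulators 3 were tested and lay within 2-fold. Srf, serum response factor, had 57.96 CPM in replicate 2 and 72.9 CPM in replicate 1, while Myocd, its smooth muscle partner, had 0 reads in both.

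Markers of other cell types were counted beside the members, against 13.5% higher and 4.33% lower over all genes. After centring on length these shares of all genes were 6.17% and 4.77%. Of 11 smooth muscle and pericyte markers, 8 were tested, of which 4 (Tagln, Lmod1, Rgs5 and Kcnj8) were at least 2-fold higher and 0 lower, with a median of 0.84. After centring on length 3 (Tagln, Kcnj8 and Notch3) were higher and the median was 0.55. Rgs5, at 1.02 before, stood at 0.52, and Lmod1, at 1.10 before, stood at 0.59. Notch3 went from 0.65 to 1.19, on 8 reads in replicate 2 and 6 in replicate 1. Acta2 and Mcam were nearly equal in the libraries, at log2 ratios of 0.09 and 0.15. The summed level was 434 CPM in replicate 2 and 231 CPM in replicate 1, most of it the pericyte gene Rgs5 with 303 CPM in replicate 2 and 148 CPM in replicate 1. Kcnj8, a pericyte potassium channel, had 19.6 CPM in replicate 2 and 5.96 CPM in replicate 1. Of 8 endothelial markers, 7 were tested, of which 3 (Kdr, Tek and Cldn5) were higher and 0 lower, with a sum of 136 CPM in replicate 2 and 70.2 CPM in replicate 1. Centring on length also left 3 higher, and moved the median to 0.62, while before it was 0.94. Of the remaining endothelial markers, Ly6c1 went the other way, at −0.47. All markers of both lists had reads in at least 1 library. All 6 fibroblast markers lay within 2-fold, with sums of 702 CPM in replicate 2 and 668 CPM in replicate 1. Of 3 immune markers tested, 1 was lower and 0 higher. Blood and satellite cell markers lay within 2-fold, with 3 and 1 tested, and 1 of 2 Schwann cell markers was higher. The fibre markers Acta1, Ckm, Atp2a1, Mylpf and Tnnc2 stood at 285752 CPM together in replicate 2 and 308521 CPM in replicate 1, with 1 of 5 at least 2-fold lower. ERCC spike-ins took 0.590% of reads in replicate 2 and 2.71% in replicate 1. The part of vessel markers, spike-in share or transcript length in the ratios was not tested. In whole tissue, more cells of a type and more RNA per cell cannot be told apart.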

How the data were processed

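Long-read cDNA libraries of gastrocnemius were analysed in 1 group of 2 replicates, whose numbers come from the labels. Each deposited table gave unnormalized read counts for transcript models. The authors made them from alignments to mm10 with GENCODE M21, per the deposited README texts. Known transcripts, incomplete matches, unannotated combinations and genomic models were named by TALON, per the annotation files' own source entries. For the aligner, platform and versions: not given in the sources used here. The deposited annotations gave exon positions, used as 1-based. Totals were 1173233 reads in replicate 2 and 1509380 in replicate 1.

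Counts were summed per gene name over all classes and scaled to CPM with pandas 2.3.3 in Python 3.11.15. Ratios used log2(CPM + 1), a minimum of 10 reads over both libraries and a 2-fold limit, and were also centred on the genes nearest in length. The ratio step was tested on simulated data. Exon inclusion compared reads with both junctions of an exon and reads that skip it. Intervals are exact 95% Clopper-Pearson (scipy 1.17.1) and cover counting error only. Alternatives used edgeR 4.0.16 and DESeq2 1.42.0. No test was run, because a comparison of 1 library with 1 other has no replicates. The members and lists were chosen with earlier results of these data known. Named are the members, their transcripts with at least 5% of a gene's reads, and pathway list genes with a mean of at least 20 CPM; cell type lists are given as counts and sums; genes named below 20 CPM and transcripts with fewer reads were named after their values were seen. Sequences came from the M21 transcripts and the RefSeq promoter table.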

Additional observations from a re-analysis of the deposited data

Results flagged for a closer look

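Reads of the opposite strand lay over 2 of the heavy chain genes, in models outside the counts above. Over Myh10 there were 12 such reads, in 4 models of replicate 2, and over Myh9 there were 5 reads in replicate 2 and 7 in replicate 1, in 2 models each. All are above the 3 reads that a count of 0 allows. There were no control samples to set them against.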

How the results depend on the processing

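Counts of members past the limit moved with the scaling and the limit. With TMM, and equally with DESeq2 size factors, 2 members were higher and 1 lower, in place of 4 and 0. Over all genes 9.38% were higher and 7.06% lower with TMM, and 9.35% and 7.14% with DESeq2. At a 1.5-fold limit 5 were higher and 2 lower, beside 28.5% and 12.5% of all genes. The signs of the 7 ratios were the same under each alternative that recomputes them. With annotated transcripts only, Myl6 averaged 33.7 CPM, Myh11 made up 34.8% of heavy chain reads and Myl12b 3.12% of regulatory light chain reads. The most read transcript then took 100% for Myl12b-201, Myl9-201 and Myh9-201, 46.1% for Myl6-206 and 51.3% for Myh11-204, since only annotated transcripts stay in the denominator. Inclusion of the Myl6 45-nt exon became 52.9% and of the 20-nt exon 0%, because no annotated transcript with reads holds it. Without the Myl12b reads on Myl12a exons, an alternative chosen after seeing the data, Myl12b made up 3.15%. The share of Myh10-203 among annotated transcripts could not be had, since 0 Myh10 reads of replicate 1 matched one. Leaving out replicate 1 or 2 gives the value of the other library, as printed above. No paired analysis was possible because there is 1 group. With Myh14 among the heavy chains, also chosen after seeing the data, the mean ratio of Myl6 to heavy chain reads was 0.601 in place of 1.57. Counts of 5 to 50 reads limit every gene but Myl12a, in Myl6 those of replicate 2.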
